A study of Rattus norvegicus with 8 samples.

Results

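The vacuolar proton pump (V-ATPase) and its assembly factor Vma21 are described here in rat brain tissue injected with an inactivated baculovirus vector or with saline. The genes were taken as the 10 named members Vma21, Atp6ap1, Atp6v0a1, Atp6v0c, Atp6v0d1, Atp6v1a, Atp6v1b2, Atp6v1e1, Atp6v1f and Atp6v1h, out of 14217 genes that the array's annotation names with a single symbol. They are read by 14 probe sets, all of which passed the filter on low values and were tested. They were chosen by function and from the measured intensities, with the outcome of this comparison in view, so the difference between the groups is given below as a description.

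Expression was measured on 8 Affymetrix Rat Genome 230 2.0 arrays. For the BVi group (4 arrays), 5 µl with 50000000 particles of a baculovirus vector, first exposed to 254 nm ultraviolet light for 1 hour, were injected into the striatum of adult male Wistar rats. For the PBSi group (4 arrays), the injection held 5 µl of PBS, a phosphate-buffered salt solution. Tissue was taken 48 hours after injection, both groups had been injected, and the age of the rats is not given in the labels. Which rat each array came from is not labelled, nor which of the labelling kits named in the protocol was used for it. The design text counts 7 rats and places the saline on the opposite side, so arrays may share animals, and the spread given here is the spread between these samples, which may be partly technical.

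The V-ATPase is a rotary machine in the membranes of endosomes, lysosomes, the Golgi apparatus and synaptic vesicles. Its cytosolic V1 sector hydrolyses ATP, and the rotation drives protons through the membrane-bound V0 sector. In neurons the proton gradient loads transmitters into synaptic vesicles, and in all cells it acidifies endosomes, where the low pH also triggers the membrane fusion by which baculoviruses enter. Vma21 is a small membrane protein of the endoplasmic reticulum that escorts V0 during its assembly and does not stay in the finished pump, as shown in yeast. Loss of its function in humans causes an X-linked muscle disease with excess autophagic vacuoles.

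Regions before the transcription start are shown for Vma21, the member whose groups stood apart, and for Atp6v0c, Atp6v0d1, Atp6v1e1 and Atp6v1f, the subunits that varied together between arrays. Sequences are from RefSeq on build GRCr8, read 5′ to 3′ on the gene's strand and ending at the base before the start. They run over 250 bases, except that the nearest 100 bases are given for the second start of Vma21. Capitals mark CACGTG, the core of the E-box that factors of lysosomal genes such as TFEB read, the box CCAAT, and GGGCGG, the core of a GC box, each on either strand, and no 2 of these matches overlapped in the windows of the members.
Vma21 first start, chrX:154536243-154536492 (+): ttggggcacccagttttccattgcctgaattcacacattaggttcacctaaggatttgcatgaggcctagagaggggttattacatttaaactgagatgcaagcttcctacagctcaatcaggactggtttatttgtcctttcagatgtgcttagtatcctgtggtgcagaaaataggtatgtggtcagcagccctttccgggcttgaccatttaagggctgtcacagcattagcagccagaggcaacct
Vma21 second start, chrX:154537071-154537170 (+): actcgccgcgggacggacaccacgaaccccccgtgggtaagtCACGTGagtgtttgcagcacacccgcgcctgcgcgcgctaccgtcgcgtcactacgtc
Atp6v0c, chr10:13705843-13706092 (-): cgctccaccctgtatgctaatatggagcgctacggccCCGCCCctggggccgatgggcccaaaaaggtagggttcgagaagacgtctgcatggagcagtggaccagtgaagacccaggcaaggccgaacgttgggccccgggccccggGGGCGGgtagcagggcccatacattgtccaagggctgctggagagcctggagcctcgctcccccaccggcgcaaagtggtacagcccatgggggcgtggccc
Atp6v0d1, chr19:50357249-50357498 (-): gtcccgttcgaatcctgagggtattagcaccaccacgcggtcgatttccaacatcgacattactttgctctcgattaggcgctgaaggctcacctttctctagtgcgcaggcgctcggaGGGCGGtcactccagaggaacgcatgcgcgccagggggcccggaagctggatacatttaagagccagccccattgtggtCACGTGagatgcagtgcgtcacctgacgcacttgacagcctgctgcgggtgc
Atp6v1e1, chr4:155716661-155716910 (-): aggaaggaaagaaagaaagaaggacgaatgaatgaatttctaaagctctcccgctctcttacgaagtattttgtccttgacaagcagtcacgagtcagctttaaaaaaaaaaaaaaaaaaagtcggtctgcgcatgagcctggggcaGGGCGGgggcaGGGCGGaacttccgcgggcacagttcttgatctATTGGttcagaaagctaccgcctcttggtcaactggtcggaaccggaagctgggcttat
Atp6v1f, chr4:59032770-59033019 (+): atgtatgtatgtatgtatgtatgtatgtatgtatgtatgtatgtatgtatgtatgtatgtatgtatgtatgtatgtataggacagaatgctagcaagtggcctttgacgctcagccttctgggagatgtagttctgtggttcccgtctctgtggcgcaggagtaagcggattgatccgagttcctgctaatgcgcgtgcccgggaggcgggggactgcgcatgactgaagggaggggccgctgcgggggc
An entry was found for 8 of the 10 members, and none for Atp6v1b2 and Atp6v1h. Vma21 and Atp6v0d1 held CACGTG, 58 bases before the second start of Vma21 and 52 bases before the start of Atp6v0d1, against 5.59% of all 33469 windows of this length. GGGCGG was found for Atp6ap1, Atp6v0a1, Atp6v0c, Atp6v0d1 and Atp6v1e1, against 30.5% of all windows. CCAAT was found for Atp6ap1, Atp6v0a1 and Atp6v1e1, against 34.0% of all windows. These matches describe letters in the windows and say nothing of binding.

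Values below are intensities on the linear scale of the deposited table, and log2 fold changes are BVi minus PBSi on log2(intensity + 16), with limma standard errors (SE). The level of one probe set is not comparable with that of another. In brain tissue, fewer cells of a type and less RNA per cell cannot be told apart. As for the cells that the tissue held, 8 of 9 striatal neuron markers had a single-symbol probe set on the array and all 8 were above the filter. The T cell markers Cd3e, Cd3d and Cd8a were below the filter on each of their probe sets. PBSi replicate 4 had Ttr, a choroid plexus gene, at 47.7, against 1563 to 1968 elsewhere. The beta-actin difference between 3′ and 5′ control probe sets, a measure of RNA quality, averaged 0.504 ± 0.162 in BVi and 0.520 ± 0.0998 in PBSi tissue (log2, SD, n = 4 each, exact two-sided permutation p = 0.886).

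Vma21 had a lower mean after inactivated baculovirus on each of its 3 probe sets, and the groups did not overlap on any of them. On 1394029_at, the probe set with the highest mean, BVi replicates 1 to 4 were at 95.5, 82.1, 86.6 and 92.6, against 124.6, 123.5, 139.9 and 117.3 for PBSi replicates 1 to 4. Every BVi array lay below every PBSi array, with a gap between 95.5 and 117.3. The means were 89.2 ± 6.02 in BVi and 126 ± 9.61 in PBSi tissue (SD, n = 4 each), a log2 fold change of -0.44 ± 0.09 (SE).

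The second probe set of Vma21, 1383079_at, measured 42.2, 44.5, 46.1 and 32.4 in BVi and 49.4, 56.4, 59.5 and 53.9 in PBSi tissue, replicates 1 to 4 in each case. BVi replicate 4 was the lowest of all arrays here, whereas on 1394029_at it was the second highest of its group. The log2 fold change was -0.31 ± 0.11 (SE). The third, 1383791_at, measured 87.1, 79.2, 87.1 and 72.8 in BVi and 97.1, 99.3, 87.2 and 103.6 in PBSi tissue. Here the groups all but touched, since 2 BVi arrays lay at 87.1 and PBSi replicate 3 at 87.2. The log2 fold change was -0.21 ± 0.09 (SE).

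**Figure D1:**
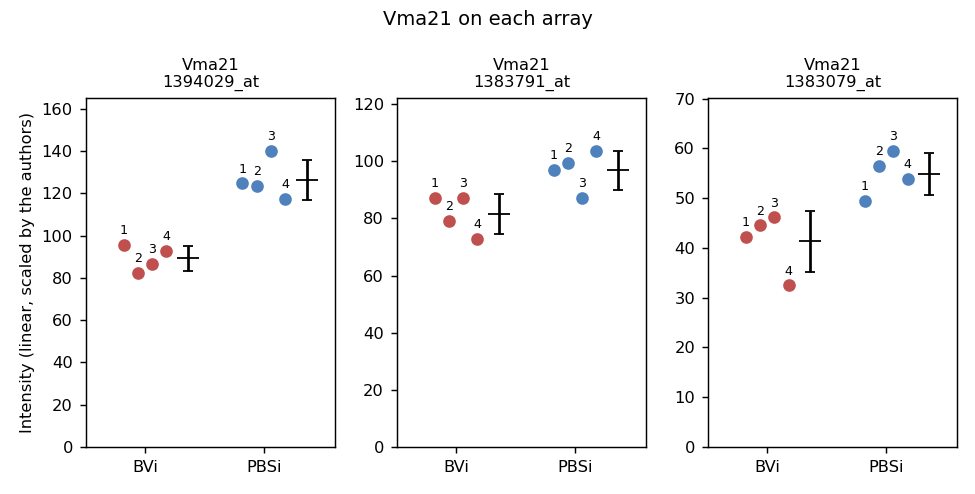
Intensity (linear scale) of the 3 probe sets of Vma21 on each array, with BVi on the left and PBSi on the right of each panel. Points are arrays numbered by replicate, and bars are group means with SD (n = 4). On 1394029_at the BVi arrays sit between 82.1 and 95.5 and the PBSi arrays between 117.3 and 139.9, and on 1383791_at the highest BVi array is at 87.1 and the lowest PBSi array at 87.2.

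None of the 14 probe sets reached the threshold of 0.05 after limma's p was Benjamini-Hochberg adjusted over 18625 probe sets, and neither did any other: 0% were called higher and 0% lower. At an unadjusted p under 0.05, limma gave 468 probe sets higher (2.51%) and 786 lower (4.22%), while with median centring 263 were higher and 1085 lower. With 1 array left out the counts ranged from 260 higher and 449 lower without BVi replicate 2 to 873 and 1084 without PBSi replicate 4, and without BVi replicate 4 more were higher (608) than lower (526). The methods' t-test gave 483 higher and 768 lower at that p, and 0 after Benjamini-Hochberg adjustment. None of those differed by the 2-fold that the methods add, on log2(intensity + 16), a scale that understates dim probe sets. In limma, 3 higher and 1 lower passed that fold and p with a pseudocount of 1, 8 higher without BVi replicate 4, 10 higher without PBSi replicate 4 and 5 higher without PBSi replicates 3 and 4. Groups that did not overlap were found for 3 of the 14 probe sets, all of Vma21 and all lower in BVi, where 2.31% of all probe sets tested were separated in that direction and 1.55% in the other. Among 596 genes with at least 3 probe sets tested, Vma21 was the only one whose groups did not overlap on all of them with the BVi arrays lower (0.168%). The mean was lower on all probe sets for 113 of these genes (19%). Neither count was made for the higher direction. The members were selected with this contrast in view, and these shares are not evidence for a difference.

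The difference in Vma21 kept its sign on all 3 probe sets in each of the 14 alternative settings that could alter its size. Since the groups did not overlap, leaving out arrays or changing the pseudocount could not have reversed it. With 1 array left out it lay between -0.47 and -0.39 for 1394029_at, between -0.35 and -0.23 for 1383079_at and between -0.25 and -0.17 for 1383791_at. Without PBSi replicates 3 and 4 together it was -0.41 for 1394029_at. The mean log2 deviation of 8 neuron markers ran from -0.11 to 0.03 on the BVi arrays and from -0.12 to 0.09 on the PBSi arrays. For other marker lists BVi minus PBSi was -0.12 for striatal neuron markers (7 of 8 with a lower BVi mean) and 0.08 for microglia markers. It was 0.12 for endothelial markers (4 of 5 with a higher mean) and 0.19 for meningeal fibroblast markers. Of the last, 3 of 5 were higher at an unadjusted limma p under 0.05, against 2.66% of all genes, and 0 passed adjustment. That count was 1 with median centring and without BVi replicate 1, PBSi replicate 2 or PBSi replicate 3, and 4 without PBSi replicate 1. BVi minus PBSi was 0.48 for choroid plexus markers, which were at -1.58 on PBSi replicate 4, and 0.81 for the 1 red cell marker tested. The groups overlapped for each of these lists. Striatal neuron markers ran from -0.24 to 0.16 in BVi and from -0.20 to 0.25 in PBSi tissue. Meningeal fibroblast markers ran from -0.04 to 0.22 in BVi and from -0.23 to 0.18 in PBSi tissue. The deviation of Vma21 on 1394029_at ran from -0.32 to -0.13 on the BVi arrays and from 0.13 to 0.35 on the PBSi arrays. The part of cell composition in the difference was not tested.

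The 9 pump subunits did not show such a separation: the groups overlapped on all 11 of their probe sets. For 9 of these 11 the standard error was under 0.1, their log2 fold changes lay between -0.10 and 0.02, and their 95% intervals together spanned 0.834-fold to 1.12-fold. Over the 10 members, each taken by its probe set with the highest mean, 6 had a lower and 4 a higher mean, with a median log2 fold change of -0.03. Over the 10539 genes tested, 44.3% had a lower and 55.7% a higher mean, with a median of 0.02. The count of members with a lower mean was 9 with median centring or without BVi replicate 3, and 4 without BVi replicate 1, where the members' median was 0.01. With median centring 4798 of all genes tested had a higher and 5741 a lower mean.

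**Figure D2:**
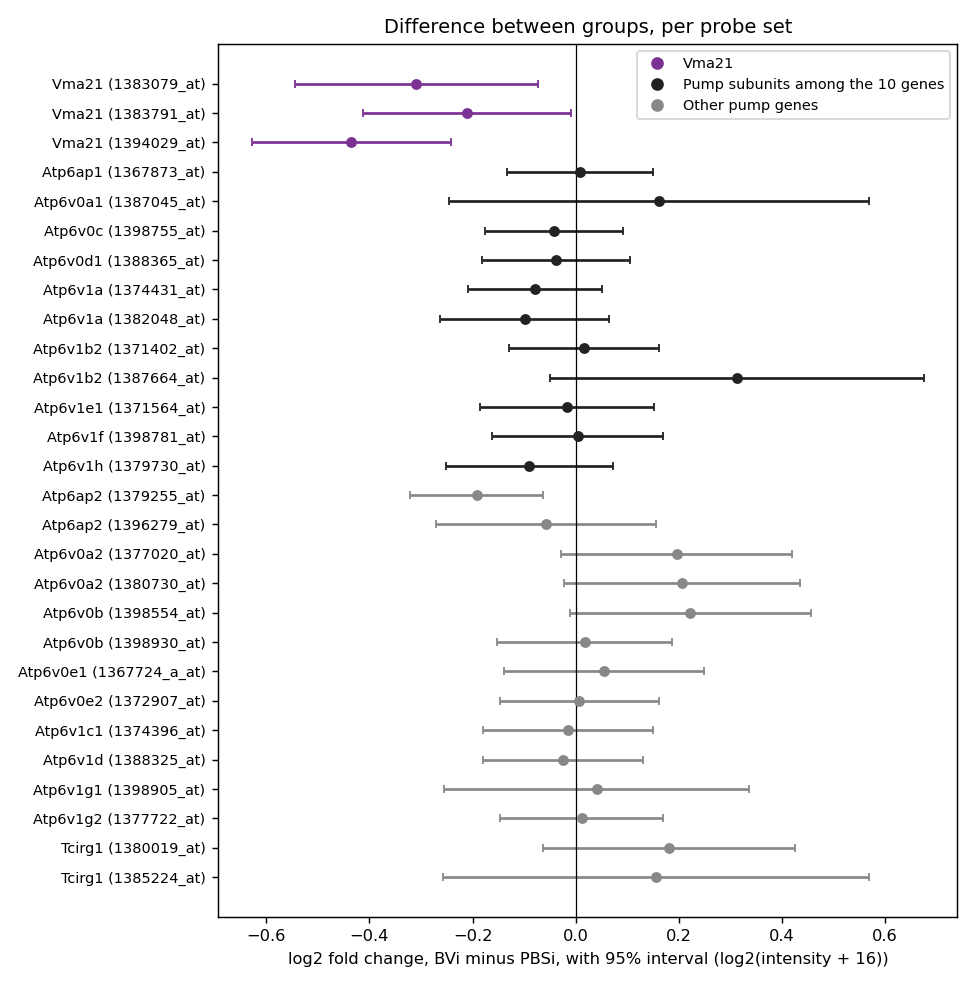
Log2 fold change of BVi minus PBSi (horizontal axis, on log2(intensity + 16)) for each tested probe set of Vma21, of the pump subunits among the 10 genes and of other pump genes. Points are limma estimates and bars 95% intervals. The 3 Vma21 points lie between -0.44 and -0.21, while Atp6v0a1 (1387045_at) and the second probe set of Atp6v1b2 (1387664_at) have the widest bars among the subunits of the 10 genes.

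In the membrane sector, Atp6v0c forms the rotating ring that carries the protons. It measured 1433, 1612, 1594 and 1576 on the BVi arrays and 1544, 1531, 1649 and 1671 on the PBSi arrays. The ranges overlapped over most of their length, with a log2 fold change of -0.04 ± 0.06 (SE). Atp6v0d1, which couples the ring to the central stalk, measured 1127, 1267, 1217 and 1281 in BVi and 1258, 1160.5, 1336 and 1268 in PBSi tissue. Its log2 fold change was -0.04 ± 0.07 (SE). Atp6ap1, an accessory subunit with a role in assembly, measured 1102, 1183, 1244 and 1119 in BVi and 1088, 1119, 1191 and 1221 in PBSi tissue. Its log2 fold change was 0.01 ± 0.07 (SE).

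Atp6v0a1 is the form of the a subunit that is prominent in neurons and holds the channels through which protons reach and leave the ring. It measured 406, 398, 421 and 441 on the BVi arrays and 454, 475, 209 and 414 on the PBSi arrays. A single array, PBSi replicate 3, lay below all others, and it set the direction: the log2 fold change of 0.16 ± 0.19 (SE) was -0.10 without it. The same array was the lowest of its group on both probe sets of Atp6v1b2. It was also low for Slc17a7, a vesicular transporter of cortical glutamatergic neurons, which on 1368987_at was at 909 to 1271 on the BVi arrays, at 454 on PBSi replicate 3 and at 1039 to 1108 on the other PBSi arrays. The mean log2 deviation of the 2 cortical neuron markers tested ran from -0.17 to 0.27 on the BVi arrays, was -0.35 on PBSi replicate 3 and ran from 0.02 to 0.16 on the other PBSi arrays. The part of this in the value of Atp6v0a1 was not tested.

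In the catalytic sector, Atp6v1a carries the sites of ATP hydrolysis and has 2 probe sets. The brighter one, 1374431_at, measured 1001, 1025, 1096 and 1019.7 in BVi and 1067, 1128, 1127 and 1055 in PBSi tissue. The groups overlapped through BVi replicate 3, and the log2 fold change was -0.08 ± 0.06 (SE). The other, 1382048_at, ranged from 425 to 524 in BVi and from 492 to 527 in PBSi tissue, at -0.10 ± 0.08 (SE). Both kept their sign in these 14 alternative settings.

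Atp6v1b2 is the B subunit form of the brain, which alternates with the A subunit in the ring that turns over ATP. Its 2 probe sets differed. On 1371402_at it measured 873, 905, 939 and 872 in BVi and 906, 958, 811 and 879 in PBSi tissue, with a log2 fold change of 0.02 ± 0.07 (SE). On 1387664_at it measured 414, 511, 603 and 309.5 in BVi and 343, 371, 290.2 and 436 in PBSi tissue. The BVi arrays spread more widely there than the group means differed, and the log2 fold change of 0.31 ± 0.17 (SE) lay between 0.17 and 0.48 with 1 array left out. The lowest of these, 0.17, was without BVi replicate 3 and the highest without BVi replicate 4.

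Atp6v1e1 belongs to the stator that holds the catalytic ring still, and Atp6v1f to the rotor within it. Atp6v1e1 measured 1412, 1651, 1550.1 and 1715 in BVi and 1531, 1457, 1781 and 1637 in PBSi tissue, at -0.02 ± 0.08 (log2 fold change ± SE). Atp6v1f measured 1255, 1411, 1444 and 1585 in BVi and 1406, 1294, 1473 and 1496 in PBSi tissue, at 0.00376 ± 0.08. For both, BVi replicate 1 and PBSi replicate 2 were the lowest arrays of their groups. Atp6v1h, which links the sectors and regulates the enzyme, measured 398, 398, 439 and 426 in BVi and 485, 414, 458 and 418 in PBSi tissue. Its log2 fold change was -0.09 ± 0.08 (SE) and kept its sign in the same 14 settings.

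**Figure D3:**
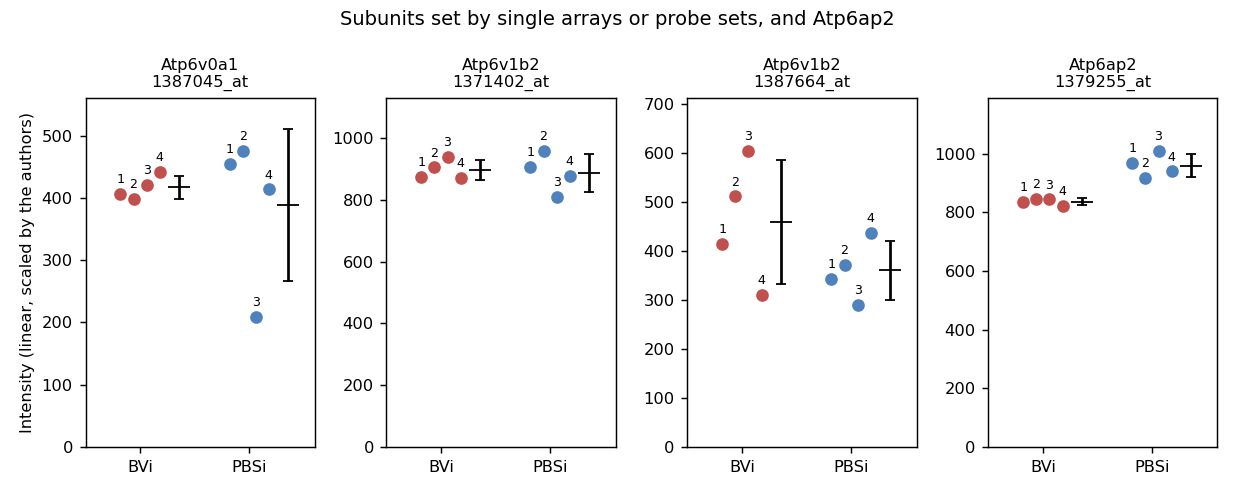
Intensity (linear scale) of Atp6v0a1, of both probe sets of Atp6v1b2 and of the brighter probe set of Atp6ap2 on each array, with BVi left of PBSi. Points are arrays numbered by replicate and bars are group means with SD (n = 4). PBSi replicate 3 sits at 209 for Atp6v0a1, and the groups of Atp6ap2 do not overlap.

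With group means removed, the subunits fell into an uneven pattern across the 8 arrays. Atp6v0c, Atp6v0d1, Atp6v1e1 and Atp6v1f varied together, with Pearson's r between 0.80 and 0.96 for their 6 pairs, while the median over all 45 pairs of members was 0.09. The closest pair was Atp6v0d1 with Atp6v1e1. Atp6ap1 had r = 0.81 with Atp6v0c, but between 0.41 and 0.45 with the other 3 of these. Atp6v0a1 and Atp6v1b2, both low on PBSi replicate 3, had r = 0.81. Vma21 on 1394029_at had r between -0.67 and 0.30 with the other 9 members. This range holds for that probe set only, since r among the 3 probe sets of Vma21 was 0.37, -0.10 and -0.47. With Atp6v1b2 on 1371402_at, for example, r was -0.67 for 1394029_at and 0.57 for 1383791_at. These correlations are descriptions over 8 arrays that share their processing, and the 4 genes were grouped after their values were seen.

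**Figure D4:**
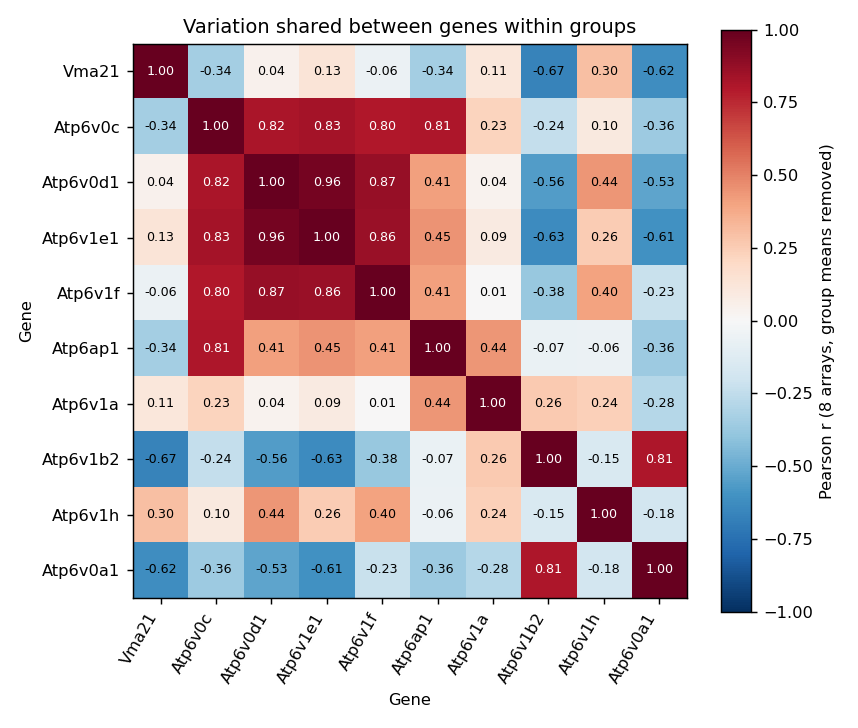
Pearson's r between the 10 genes over 8 arrays after removal of group means, 1 probe set a gene, with colour from -1 (blue) to 1 (red). Atp6v0c, Atp6v0d1, Atp6v1e1 and Atp6v1f form a block with r from 0.80 to 0.96, and Vma21, read by 1394029_at, lies outside it.

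The mean log2 deviation of these 4 subunits was -0.15, 0.03, -0.00339 and 0.08 on BVi replicates 1 to 4 and -0.02, -0.10, 0.10 and 0.06 on PBSi replicates 1 to 4. The 3′ control probe set of GAPDH, a glycolytic enzyme read by control probe sets of the array, was at -0.18, 0.05, -0.01 and 0.13 on the BVi arrays and at -0.03, -0.11, 0.07 and 0.07 on the PBSi arrays. Both measures put BVi replicate 1 lowest and PBSi replicate 2 next. The 5′ control probe set of GAPDH had the same order, with these arrays at -0.15 and -0.13. The middle one of GAPDH had both arrays at -0.12. Those of beta-actin differed in this: the 3′ one (-0.12) and the middle one (-0.18) were lowest on PBSi replicate 1. The 5′ one of beta-actin was at 0.04 on BVi replicate 1 and lowest on BVi replicate 4 (-0.19). For 4 of the 9 pump subunits, BVi replicate 1 and PBSi replicate 2 were the lowest arrays of their groups, as for 5 of the 10 other pump genes tested (Atp6v0e2, Atp6v1c1, Atp6v1d, Atp6v1g1 and Atp6v1g2). Over all genes tested this held for 10.3%. The 4 subunits are the same 4 whose mean deviation is given above, and these arrays were picked after those values were seen. Their count is therefore no separate evidence of the pattern. The part of labelling or scaling in this shared variation was not tested.

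**Figure D5:**
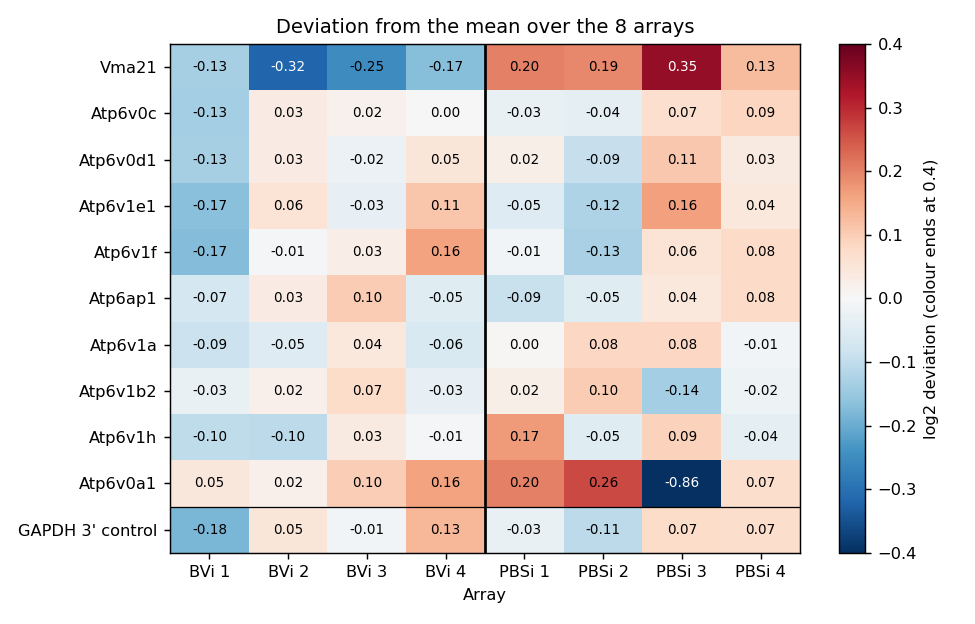
Log2 deviation of each gene (rows, 1 probe set a gene) and of the GAPDH 3′ control from the mean over the 8 arrays (columns, BVi left of PBSi). Vma21 is negative on all BVi and positive on all PBSi arrays. BVi replicate 1 is low for the 4 subunits below it as for GAPDH, and PBSi replicate 3 is at -0.86 for Atp6v0a1, beyond the colour scale.

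Of 16 other pump genes looked for, 14 had a probe set annotated with their single symbol, and 10 had one that was tested. No member of this list passed over all probe sets (limma adjusted p, 0 higher and 0 lower). Under an unadjusted p of 0.05, 0 genes were higher and 1 lower, against 2.66% higher and 3.92% lower over all genes, and 7 had a higher and 3 a lower mean. That split turned to 2 higher and 8 lower without PBSi replicate 2, 4 and 7 without BVi replicate 4, and 4 and 6 with median centring, and it was 9 and 1 without BVi replicate 1. The 1 gene was Atp6ap2, the prorenin receptor and a second accessory subunit of the pump. On 1379255_at it measured 835, 847, 844 and 822 in BVi and 969, 918, 1009 and 939 in PBSi tissue. The groups did not overlap, and the log2 fold change was -0.19 ± 0.06 (SE, limma adjusted p = 0.686). Its other probe set, 1396279_at, had overlapping groups and a log2 fold change of -0.06 ± 0.10 (SE). When all probe sets of a gene were averaged, 1 gene of this list was higher and 0 lower at an unadjusted limma p under 0.05. Atp6v0a2, another form of the a subunit, had higher BVi means on both probe sets, at 0.20 ± 0.10 and 0.21 ± 0.11 (log2 fold change ± SE), and did not pass (limma adjusted p = 0.754 and 0.751). Atp6v0a4, Atp6v1b1, Atp6v1c2 and Atp6v1g3 lay under the filter, with intensities between 1.61 and 30.5.

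Among 8 tested genes of pump assembly and regulation, 3 had a higher and 5 a lower mean and 0 passed. The split was 4 and 4 without BVi replicate 1, PBSi replicate 1 or PBSi replicate 3. Under an unadjusted limma p of 0.05, 2 were lower, against 3.92% of all genes. That count was 0 without BVi replicate 2 or BVi replicate 4, and 1 without PBSi replicate 1, 2 or 3. Ncoa7, a TLDc-domain protein that binds the pump, measured 480, 440, 484 and 423 in BVi and 532, 529, 536 and 482 in PBSi tissue. The groups met only where BVi replicate 3, at 484, passed PBSi replicate 4, at 482, and the log2 fold change was -0.18 ± 0.07 (SE, limma adjusted p = 0.714). Dmxl2, a subunit of the rabconnectin complex that promotes joining of V1 to V0, stood at -0.18 ± 0.08 (SE, limma adjusted p = 0.721).

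Of 7 tested genes of endosomal and lysosomal ion transport, 4 had a higher and 3 a lower mean and 0 passed, with 3 and 4 without BVi replicate 4 or PBSi replicate 3, and 3 and 5 without PBSi replicate 1. Under an unadjusted limma p of 0.05, 0 were higher and 1 lower, against 2.66% and 3.92% of all genes. With all probe sets of a gene averaged, 0 were lower at that p. Clcn3, a chloride and proton exchanger of endosomes and synaptic vesicles, measured 359, 315, 338 and 303 in BVi and 372, 411, 415 and 363 in PBSi tissue on its brightest probe set. These did not overlap, at -0.24 ± 0.08 (SE, limma adjusted p = 0.686), and 2 of its 3 other probe sets had the same direction. Slc9a9, an endosomal sodium and proton exchanger, stood at 0.14 ± 0.11 (SE), and its 1 other probe set did not share this direction. Of 5 vesicle transporters that use the proton gradient, 4 had a higher and 1 a lower mean and 0 passed, with a median log2 fold change of 0.13 that was 0.05 without PBSi replicate 3. Without PBSi replicates 3 and 4 together 2 had a higher and 3 a lower mean. Slc32a1, which loads GABA, stood at 0.17 ± 0.11 and Slc17a6, which loads glutamate, at -0.31 ± 0.26 (log2 fold change ± SE).

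Lysosomal enzymes and membrane proteins had 17 members with a higher and 8 with a lower mean, a median log2 fold change of 0.05, and 0 that passed, where 55.7% of all genes had a higher mean. Without PBSi replicate 2 they were 13 and 12, and the median was 0.02 there and with median centring. Hexa, a subunit of the enzyme that breaks down ganglioside GM2, measured 323, 335, 333 and 348 in BVi and 296, 269, 317 and 289.5 in PBSi tissue. These did not overlap, at 0.19 ± 0.07 (SE, limma adjusted p = 0.714). Asah1, acid ceramidase, stood at -0.33 ± 0.16 (SE). The transcription factors Tfe3 and Tfeb of lysosomal genes stood at 0.17 ± 0.10 and 0.08 ± 0.09 (log2 fold change ± SE), 3 of 3 tested factors having a higher mean. Of 11 genes of the lysosomal mTORC1 platform, 4 had a higher and 7 a lower mean and 0 passed, with Fnip1 at -0.24 ± 0.10 and Rptor, the scaffold of mTORC1, at 0.19 ± 0.08 (log2 fold change ± SE). This split turned to 7 higher and 4 lower without PBSi replicate 1 and to 6 and 5 without BVi replicate 3 or with quantile normalization. The groups of Rptor did not overlap, with BVi arrays at 152 to 176 and PBSi arrays at 130 to 146. Of 18 endosome trafficking genes, 5 had a higher and 13 a lower mean and 0 passed, but 9 and 9 when all probe sets of a gene were averaged and 8 and 10 without BVi replicate 2. Hgs, which sorts ubiquitinated cargo, stood at 0.19 ± 0.08 and Rab5a, the GTPase of early endosomes, at -0.19 ± 0.08 (log2 fold change ± SE). The groups of Hgs did not overlap, with BVi arrays at 208 to 224 and PBSi arrays at 174 to 203. At an unadjusted limma p under 0.05, lysosomal enzymes and membrane proteins had 1 gene higher and 0 lower. The mTORC1 platform had 1 and 1, and endosome trafficking 1 and 2. Over all genes 2.66% were higher and 3.92% lower. Without BVi replicate 2 these lists had 0 and 0, 1 and 0, and 0 and 0, in that order.

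Likeness in pattern was ranked by Pearson's r over the 8 arrays, 1 probe set a gene. The 5 genes most like Vma21 on 1394029_at, among 10538, were Meis1, U2surp, Nkain2, Cfap97 and Tmem263. Their r lay between 0.955 and 0.963 and their log2 fold changes between -0.37 and -0.21. With group means removed they were Mak16, Srsf6, Zfp704, Cry1 and Ttc5, with r between 0.955 and 0.984, so no gene stood in both lists. For the mean of the 9 pump subunits the 5 were Cplx1, Spetex2l2, Adnp, Rab11b and Stmn3, with r between 0.887 and 0.932. With group means removed they were Gnb2, Cplx1, Rspry1, Cemip and Polr3d, with r between 0.940 and 0.975. Only Cplx1, complexin 1 of the synaptic release machinery, stood in both. With 8 arrays and this many genes, values of this size are a ranking only.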

How the data were processed

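The table was deposited by the authors as intensities on a linear scale. The submitters' processing notes name GCOS and GCRMA, but which step made these values is not stated, and per the labels the GeneSpring values were not supplied. By calculation from the table, the mean with 2% of values trimmed at each end was 100.02 on every array. On log2(intensity + 16), array medians lay between 5.74 and 5.85, so no further normalization was made. Probe sets above the 40th percentile (intensity about 26.0) and not controls were tested, 18625 for 10539 genes, with limma 3.58.1 in R 4.3.3 (eBayes with a variance trend, no block, Benjamini-Hochberg, threshold 0.05). Precision is limited by the number of arrays, with a 95% interval of 0.231 (log2) to either side for the median probe set. The fit was tested on simulated data with 200 probe sets changed. It recovered 0% of 1.2-fold, 61.5% of 1.5-fold and 97.5% of 2-fold changes, with 0, 5 and 10 wrong calls. A gene was represented by its single-symbol probe set with the highest mean, and 14 of 14 member probe sets matched RefSeq by gene number. Members, lists and tests were chosen with earlier results of these data known. Named were all members, the 2 genes of each list with the smallest p, and the 5 most alike by r, with Slc17a7, Slc17a6, Ttr, Hbb and GAPDH added after their values were seen. Other settings tried covered the pseudocount, normalization, filter, variance trend, test, block, single arrays and the choice of probe set. Leaving out PBSi replicates 3 and 4 together and a beta-actin covariate were added after the data were seen.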

Additional observations from a re-analysis of the deposited data

Results flagged for a closer look

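Over 56 sets of 4 values (each tested probe set of the 10 members and of the other pump genes, in each group), 1 array stood apart from the rest of its group by Dixon's criterion at the 95% level, and chance marks about 1 in 20 sets. It was PBSi replicate 1 for Atp6v0b, a proteolipid of the V0 ring, at an intensity of 968 on 1398930_at. The BVi arrays ranged from 806 to 953, and the other PBSi arrays from 812 to 829.9.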

How the results depend on the processing

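The count of probe sets called was 0 in each alternative run, and the smallest adjusted p over all probe sets ran from 0.0666 (without PBSi replicate 4) to 0.997 (without BVi replicate 2). With the replicate number as a block 0 probe sets were called, 439 were higher and 733 lower at an unadjusted p under 0.05, and the members' log2 fold changes are the same by construction. Same-numbered arrays did not deviate together (r between -0.00511 and 0.02), so the numbers were not taken as pairs. Of the 14 member probe sets, 7 kept their sign in the 14 alternatives that could alter a log2 fold change, those on the filter, the variance trend, the test and the block being unable to (3 of Vma21, 2 of Atp6v1a, 1 each of Atp6v1h and Atp6v1b2) and 7 changed it in 1 to 4 of the 14, each of these with a log2 fold change near 0 apart from Atp6v0a1. For the 3 of Vma21, whose groups did not overlap, leaving out arrays or changing the pseudocount could not change the sign. For Vma21 on 1394029_at the value was -0.50 with a pseudocount of 1 and -0.31 with one of 64, and on 1383079_at it was -0.41 and -0.17. Averaged over all probe sets of the gene it was -0.32 for Vma21 and 0.16 for Atp6v1b2. The members' median log2 fold change ran from -0.06 to 0.01 with 1 array left out and was -0.06 with median centring. The genes of the pathway lists past the threshold numbered 0 throughout. Dim probe sets have their change understated on this scale.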

Other observations

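Slc17a6, the vesicular glutamate transporter of thalamic and other subcortical projection neurons, measured 209, 186, 122 and 107 on BVi replicates 1 to 4 and 285, 278, 114 and 142 on PBSi replicates 1 to 4. In both groups replicates 1 and 2 were higher than replicates 3 and 4, although the numbers did not pair the arrays over all probe sets. Slc17a7, its cortical relative, was lowest on PBSi replicate 3 on both of its probe sets, at 454 and 95.5. Hbb, the haemoglobin beta chain of red cells, measured 86.3, 430.3, 73.7 and 735 on the BVi arrays and 63.3, 114.7, 46.6 and 488 on the PBSi arrays.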
